A study of Mus musculus with 8 samples.

Results

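The CXC chemokine ligands were measured here as transcripts of 10 genes of 1 family, chosen by name from the annotated array. They were Cxcl1, Cxcl2, Cxcl3, Cxcl9, Cxcl10, Cxcl11, Cxcl12, Cxcl14, Cxcl16 and Pf4. Each had 1 probe set naming it alone, so all 10 were found among the 19938 genes of the array and none was lost to a filter on low values. They were measured in mouse bone marrow-derived macrophages on 8 arrays, in 2 genotypes of 4 arrays each. Control macrophages (Ctrl) came from IL6ralpha flox/flox mice, whose Il6ra gene, encoding the IL-6 receptor alpha chain, is flanked by loxP sites. The deficient macrophages (IL6raKO) came from IL6ralpha flox/flox LysMCre tg/wt mice, in which Cre recombinase, driven from the lysozyme M locus, is expressed in myeloid cells. All 8 cultures were grown for 10 days with M-CSF at 10 ng/ml, starved of serum overnight and given murine IL-6 at 50 ng/ml for 4 h. The labels give no age or strain. The LysMCre allele was present in IL6raKO alone, so effects of the allele and of the loss of the receptor cannot be told apart. No array of untreated cells was analysed here, so no value below is a response to IL-6. The labels call the arrays biological replicates without saying that each was a separate mouse. The tests thus speak to the spread among these cultures, which may not be that among mice.

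Chemokines are small secreted proteins that bind G-protein-coupled receptors and direct the migration of leukocytes, and in the CXC class a single residue separates the first pair of conserved cysteines. Cxcl1, Cxcl2 and Cxcl3 bind Cxcr2 and attract neutrophils, and macrophages switch on their genes through NF-κB after contact with microbial products or IL-1 and TNF. Cxcl9, Cxcl10 and, where it is made as a protein, Cxcl11 bind Cxcr3 on T and NK cells, and their genes are induced by interferons. IL-6 signals through Il6ra and gp130, mainly to STAT3.

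The genes of the neutrophil-attracting class lie together. By RefSeq's annotation of the GRCm38.p6 assembly, Pf4 and Cxcl3 were direct neighbours on chromosome 5, Cxcl15 separated Cxcl3 from Cxcl1, and Cxcl1 and Cxcl2 were direct neighbours. The interferon-induced genes followed on the same chromosome after 16 further protein-coding genes, with Art3 between Cxcl9 and Cxcl10 and no gene between Cxcl10 and Cxcl11. RefSeq lists Cxcl11 in this assembly as a transcribed pseudogene. Cxcl12, Cxcl14 and Cxcl16 lie on chromosomes 6, 13 and 11.

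Promoter sequence of 8 of the 10 genes was held in a RefSeq table of GRCm38.p6. The 250 bases before each gene's start were searched on both strands. Cxcl11 and Cxcl16 had no sequence there, so they were not searched. The sequences printed here set the 3 neutrophil-attracting genes beside Cxcl10. These genes hold the κB and ISRE matches found among the searched genes of the 2 classes compared. Capitals mark matches to the κB motif, the binding sequence of NF-κB, and in Cxcl10 also a match to the interferon-stimulated response element (ISRE), searched as GAAA followed after any 2 bases by GAAA. All are written 5′ to 3′ on the gene's strand with 25 bases of flank, and the coordinates are Cxcl1 chr5:90891149-90891209 (+), Cxcl2 chr5:90903777-90903837 (+), Cxcl3 chr5:90786003-90786063 (+) and Cxcl10 chr5:92348958-92349127 (-).
Cxcl1: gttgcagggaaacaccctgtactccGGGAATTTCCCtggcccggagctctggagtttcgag
Cxcl2: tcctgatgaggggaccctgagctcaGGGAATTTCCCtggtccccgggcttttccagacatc
Cxcl3: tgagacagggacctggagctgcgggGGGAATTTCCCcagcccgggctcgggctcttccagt
Cxcl10: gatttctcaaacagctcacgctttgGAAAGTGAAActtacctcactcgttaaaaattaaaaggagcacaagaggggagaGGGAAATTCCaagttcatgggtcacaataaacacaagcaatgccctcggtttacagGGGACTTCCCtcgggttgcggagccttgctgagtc

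Cxcl1, Cxcl2 and Cxcl3 carried the same 11 bases, GGGAATTTCCC, which hold 2 overlapping κB matches, 1 on each strand, offset by 1 base. They began 71 bases before the start of Cxcl1, 97 before Cxcl2 and 73 before Cxcl3. The 11 bases were found on the gene's strand in 12 of 32851 promoters (0.037%). Cxcl10 held 2 κB matches, beginning 159 and 103 bases before its start, and 1 ISRE match beginning 213 bases before it. A κB match on either strand was found in 3.90% of all promoters and an ISRE match in 2.98%. Neither Cxcl9, Cxcl12 nor Pf4 had a κB or ISRE match in this window. Cxcl14 had an ISRE match and a match to TTCNNNGAA, the GAS motif bound by STAT proteins, which 7.02% of promoters held. No other member of the 8 had a GAS match. The motif TATAAA was found for Cxcl3 and Cxcl9 and in 12.4% of all promoters. These are matches of letters and were not measured as binding.

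The values are log2 expression per probe set, on which 1 unit is a doubling of signal, and levels of different genes are not comparable because each probe set has its own brightness. The targeted gene, Il6ra, was at 8.43, 8.40, 8.40 and 8.45 in Ctrl replicates 1 to 4 and at 7.75, 8.10, 7.91 and 7.92 in IL6raKO, without overlap (difference -0.50, SE 0.07, limma adjusted p = 0.0607). The 9 measured macrophage markers had means of 9.07 to 13.12, and their summed signal was 15.04 to 15.20 on the log2 scale in Ctrl and 15.12 to 15.13 in IL6raKO. Such sums, here and for the marker lists below, are weighted to the brightest probe sets and say little about the dimmer markers. Of the 9 macrophage markers, 1 had an unadjusted p under 0.05, against 7.28% of all genes. It was Fcgr1, lower in IL6raKO with overlap (difference -0.24, limma adjusted p = 0.681). Ctrl replicate 4 stood apart from the other arrays, at 21.55 on the first principal component of all genes against -6.60 to 4.82 for the other 7. Its mast cell and basophil markers were also the highest, with a mean deviation of 0.37 from the gene means, against -0.36 to 0.15 in the other arrays. Without this array the differences of the ligands were 0.04 for Cxcl1, 0.35 for Cxcl2, -0.15 for Cxcl3, -0.13 for Cxcl9, 0.29 for Cxcl10, 0.05 for Cxcl11, -0.05 for Cxcl12, 0.15 for Cxcl14, -0.14 for Cxcl16 and 0.11 for Pf4. Their values over all arrays follow.

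None of the 10 ligands passed the test between genotypes. In limma's test, with Benjamini-Hochberg adjustment over all genes, 0 of 10 had an adjusted p under 0.05, where 0.0301% of all genes did, and their adjusted p ranged from 0.448 to 0.944. At an unadjusted p under 0.05 there were 2 of 10 against 7.28% of all genes: Cxcl2, higher in IL6raKO (1 of 10, against 2.74% of genes), and Cxcl3, lower (1 of 10, against 4.54%). The groups did not overlap for 1 of 10, against 4.44% of all genes: Cxcl2, higher in IL6raKO, as 2.07% of genes were. None of the 10 was without overlap and lower, as 2.37% of genes were. The median difference of the 10, IL6raKO minus Ctrl, was 0.06, and that of all genes was -0.01. Of the 10 differences, 6 were above 0 and 4 below, where 9135 of all 19938 genes were above 0 and 10803 below. Without Ctrl replicate 4, Cxcl2, Cxcl10 and Cxcl16 had an unadjusted p under 0.05 and Cxcl3 did not, and no ligand passed after adjustment. The share of all genes was not counted without this array, so no background stands beside that count. With so few members, counts of 1 or 2 over all arrays cannot be set apart from the background shares given above.

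**Figure D1:**
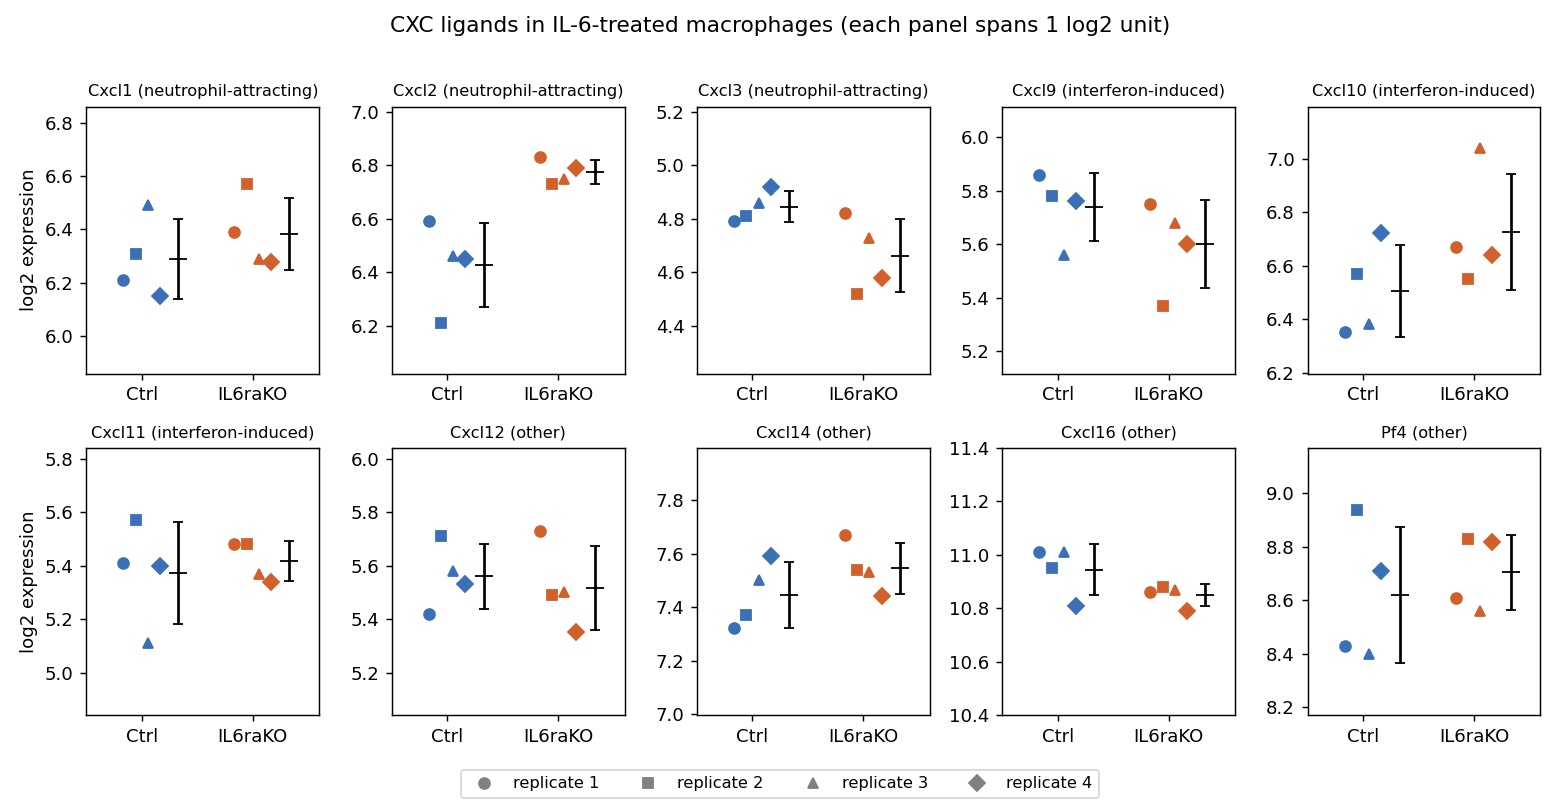
Log2 expression (y axis, each panel spanning 1 unit) of the 10 CXC ligands in the 4 Ctrl and 4 IL6raKO arrays; symbols mark the replicate number, and bars are the mean and SD (n = 4). Cxcl2 is the panel in which every IL6raKO array (6.73 to 6.83) lies above every Ctrl array (6.21 to 6.59), and in the other panels the groups overlap.

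Cxcl2 (probe set 10523156), also called MIP-2, is a principal neutrophil attractant made by mouse macrophages. Its log2 expression was 6.59, 6.21, 6.46 and 6.45 in Ctrl replicates 1 to 4 and 6.83, 6.73, 6.75 and 6.79 in IL6raKO replicates 1 to 4. All 4 IL6raKO arrays lay above all 4 Ctrl arrays, the lowest IL6raKO value being 6.73 and the highest Ctrl value 6.59. The IL6raKO arrays were close together (6.77 ± 0.04, SD, n = 4), while the Ctrl arrays were spread more widely (6.43 ± 0.16, SD, n = 4), mostly through Ctrl replicate 2. The difference was 0.35 (SE 0.08, 95% confidence interval 0.17 to 0.52), or a 1.27-fold higher signal, with an unadjusted p of 0.00106 and an adjusted p of 0.448 in limma. It lay at percentile 99.8 of the differences of all genes. With any 1 array left out the difference was 0.28 to 0.40, and it was 0.35 without Ctrl replicate 4.

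Cxcl3 (probe set 10523138), a neutrophil attractant whose gene is close to that of Cxcl2, differed in the other direction at a low signal (percentile 14.3 of all genes, where RMA values compress differences). It was at 4.79, 4.81, 4.86 and 4.92 in Ctrl and at 4.82, 4.52, 4.73 and 4.58 in IL6raKO. IL6raKO replicates 2, 3 and 4 lay below every Ctrl array, and IL6raKO replicate 1 lay among them. The difference was -0.18 (95% confidence interval -0.34 to -0.01, limma unadjusted p = 0.0362, adjusted p = 0.669). Without IL6raKO replicate 1 the difference was -0.23, and the groups no longer overlapped because the only overlapping IL6raKO array was left out. Whether the difference of Cxcl3 departs from that of Cxcl2 was not tested.

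Cxcl1 (probe set 10523151), also called KC, is the third Cxcr2 ligand of the class. It was at 6.21, 6.31, 6.49 and 6.15 in Ctrl and at 6.39, 6.57, 6.29 and 6.28 in IL6raKO. The groups overlapped over most of their range, and only IL6raKO replicate 2 lay above all Ctrl arrays. The difference was 0.09 (95% confidence interval -0.11 to 0.29, limma adjusted p = 0.847), an interval that reaches into that of Cxcl2. With 1 array left out it ranged from 0.03 (without IL6raKO replicate 2) to 0.16 (without Ctrl replicate 3). The highest array differed between the genes of the class within IL6raKO: it was replicate 1 for Cxcl2 and Cxcl3 and replicate 2 for Cxcl1, the array that was lowest for Cxcl2 and Cxcl3. The 3 genes thus did not share an order of these 4 arrays.

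Cxcl10 (probe set 10531415), or IP-10, the interferon-inducible ligand of Cxcr3, had the widest interval of the interferon-induced class. It was at 6.35, 6.57, 6.38 and 6.72 in Ctrl and at 6.67, 6.55, 7.04 and 6.64 in IL6raKO. IL6raKO replicate 3 lay above every other array, while the other IL6raKO arrays lay within the Ctrl range. The difference was 0.22 (95% confidence interval -0.03 to 0.47, limma unadjusted p = 0.0788, adjusted p = 0.711). It was 0.11 without IL6raKO replicate 3 and 0.29 without Ctrl replicate 4, with adjusted p of 0.625 or more in every alternative tried. Its spread within groups (SD 0.20) was at percentile 91.1 of all genes.

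Cxcl9 (probe set 10531407), or MIG, which macrophages make mainly in response to interferon-γ, was at 5.86, 5.78, 5.56 and 5.76 in Ctrl and at 5.75, 5.37, 5.68 and 5.60 in IL6raKO. IL6raKO replicate 2 was the lowest array, and Ctrl replicate 3 was the lowest of its group. The difference was -0.14 (95% confidence interval -0.34 to 0.07, limma adjusted p = 0.765). The difference was -0.20 without Ctrl replicate 3 and -0.06 without IL6raKO replicate 2. Without Ctrl replicate 3 the groups no longer overlapped, because the only overlapping Ctrl array was left out. Cxcl11 (probe set 10531420), or I-TAC, was at 5.41, 5.57, 5.11 and 5.40 in Ctrl and at 5.48, 5.48, 5.37 and 5.34 in IL6raKO. All of its IL6raKO values lay within the Ctrl range, and the difference was 0.04 (95% confidence interval -0.16 to 0.24, limma adjusted p = 0.944), or -0.05 without Ctrl replicate 3. The probe set of Cxcl11 reports transcript, not whether a protein is made.

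**Figure D2:**
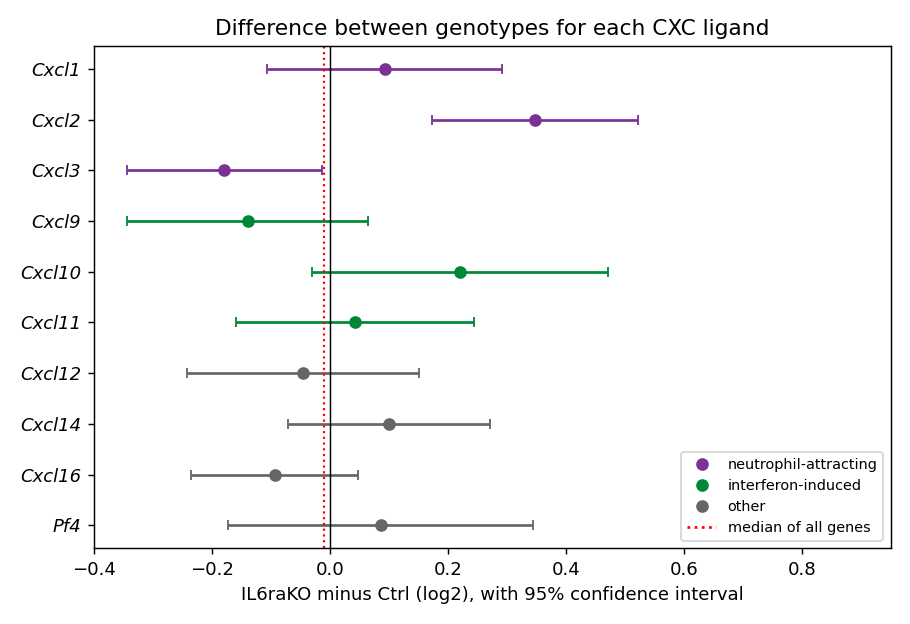
Difference in log2 expression between genotypes (x axis, IL6raKO minus Ctrl) for each CXC ligand with its 95% confidence interval from limma; colours mark the class, and the dotted line is the median of all genes (-0.01). The intervals of Cxcl2 (0.17 to 0.52) and Cxcl3 (-0.34 to -0.01) lie on opposite sides of 0, the other 8 include 0, and no ligand passed after adjustment over all genes.

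Set side by side, neither class lay wholly on 1 side of 0. The differences of the neutrophil-attracting genes were -0.18, 0.09 and 0.35, with a median of 0.09, and those of the interferon-induced genes were -0.14, 0.04 and 0.22, with a median of 0.04. Each class thus held 2 genes above 0 and 1 below over all arrays. With 1 array left out, the median of the neutrophil-attracting genes ranged from 0.03 (without IL6raKO replicate 2) to 0.16 (without Ctrl replicate 3). That of the interferon-induced genes ranged from -0.05 (without Ctrl replicate 3, where 1 gene was above 0 and 2 below) to 0.11 (without Ctrl replicate 2). The mean deviation of the neutrophil-attracting genes from their means over all arrays was -0.03, -0.12, 0.04 and -0.06 in Ctrl and 0.12, 0.05, 0.03 and -0.01 in IL6raKO. Ctrl replicate 3 overlapped with the IL6raKO arrays, and Cxcl2 carried most of the offset. For the interferon-induced genes the mean deviation was -0.02, 0.08, -0.21 and 0.07 in Ctrl and 0.07, -0.09, 0.14 and -0.03 in IL6raKO. Both groups straddled 0, and the lowest array was Ctrl replicate 3.

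Across arrays, 14 measured interferon-stimulated genes outside the ligand family had their lowest mean deviation in the same array, Ctrl replicate 3 (-0.17), and their highest in Ctrl replicate 2 (0.12). In IL6raKO their highest value was in replicate 3 (0.05), the array in which Cxcl10 was highest. The group means of the 14 genes were 0.00 in both genotypes (SD 0.13 in Ctrl and 0.05 in IL6raKO, n = 4 each).

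**Figure D3:**
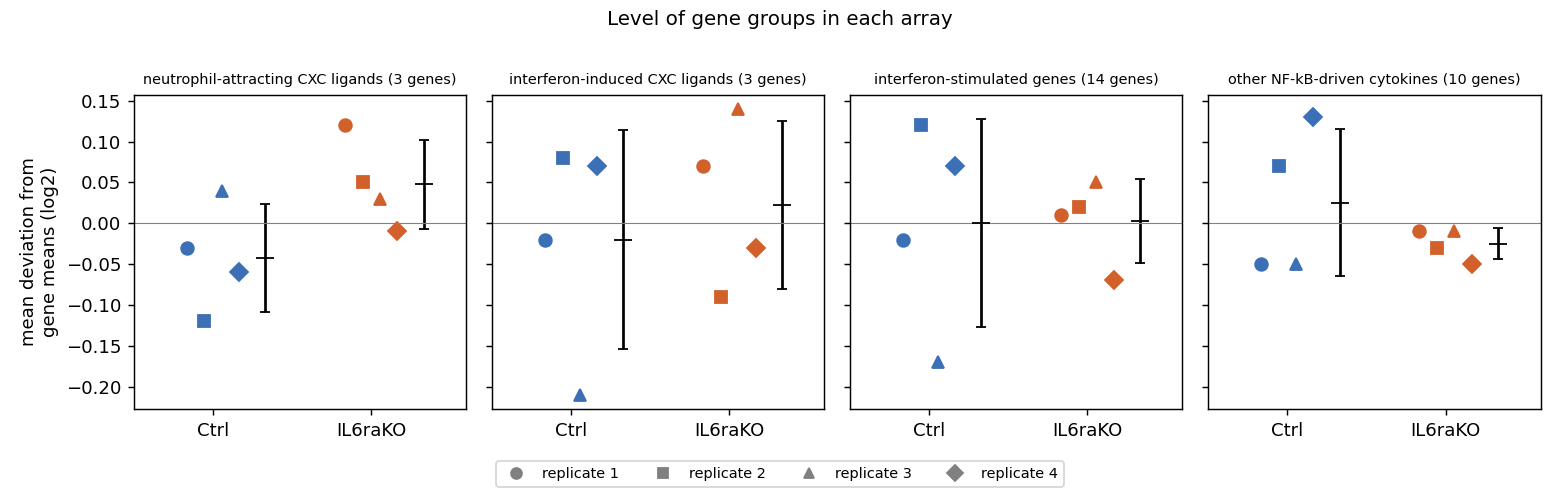
Mean deviation of each gene group from its genes' means over all 8 arrays (y axis, log2) in the 4 Ctrl and 4 IL6raKO arrays; symbols mark the replicate number, and bars are the mean and SD (n = 4). The neutrophil-attracting ligands sit between -0.12 and 0.04 in Ctrl and between -0.01 and 0.12 in IL6raKO, and Ctrl replicate 3 is lowest both for the interferon-induced ligands (-0.21) and for the 14 interferon-stimulated genes (-0.17).

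Cxcl16 (probe set 10387890) is a membrane-anchored ligand of Cxcr6 that also binds oxidised lipoprotein and is released by the proteases Adam10 and Adam17. It was at 11.01, 10.95, 11.01 and 10.81 in Ctrl and at 10.86, 10.88, 10.87 and 10.79 in IL6raKO. Ctrl replicates 1 to 3 lay above every IL6raKO array, and Ctrl replicate 4 lay among them. The difference was -0.09 (95% confidence interval -0.23 to 0.05, limma adjusted p = 0.773). Without Ctrl replicate 4 the difference was -0.14, and the groups no longer overlapped because the only overlapping Ctrl array was left out. The spread of Cxcl16 within groups was small (SD 0.07, percentile 16.1 of all genes), and the interval is that of a signal 0.85 to 1.03 times the Ctrl level. Adam10 differed by -0.01 and Adam17 by 0.09, with limma adjusted p of 0.991 and 0.76.

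Pf4 (probe set 10523134), platelet factor 4, is a chemokine of platelet granules that macrophages also transcribe. It was at 8.43, 8.94, 8.40 and 8.71 in Ctrl and at 8.61, 8.83, 8.56 and 8.82 in IL6raKO. All IL6raKO values lay within the Ctrl range, and the difference was 0.09 (95% confidence interval -0.17 to 0.34, limma adjusted p = 0.896). With 1 array left out it ranged from 0.01 (without Ctrl replicate 3) to 0.19 (without Ctrl replicate 2). Ppbp, a further platelet chemokine, was at 6.73, 6.49, 6.61 and 7.04 in Ctrl and at 7.13, 6.51, 7.31 and 7.31 in IL6raKO (difference 0.35, 95% confidence interval -0.02 to 0.72, limma adjusted p = 0.703). Pf4 and Ppbp did not share their order: Pf4 was highest in Ctrl replicate 2, where Ppbp was lowest. The 6 measured megakaryocyte and platelet markers, Ppbp included, had a median difference of -0.02, with 3 above 0 and 3 below. Of these, 1 had an unadjusted p under 0.05, against 7.28% of all genes. It was Gp5 at -0.14 (limma adjusted p = 0.673), lower without overlap between groups (1 of 6, as 2.37% of all genes were). The summed signal of the 6 markers was 9.88 to 10.00 in Ctrl and 9.93 to 10.05 in IL6raKO on the log2 scale.

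Cxcl14 (probe set 10409579), a ligand expressed mainly in epithelia, was at 7.32, 7.37, 7.50 and 7.59 in Ctrl and at 7.67, 7.54, 7.53 and 7.44 in IL6raKO. The groups overlapped, and the difference was 0.10 (95% confidence interval -0.07 to 0.27, limma adjusted p = 0.796). It was 0.06 without Ctrl replicate 1 or IL6raKO replicate 1 and 0.15 without Ctrl replicate 4. Cxcl12 (probe set 10541075), or SDF-1, the stromal ligand of Cxcr4 that keeps haematopoietic cells in the marrow, was at 5.42, 5.71, 5.58 and 5.53 in Ctrl and at 5.73, 5.49, 5.50 and 5.35 in IL6raKO. IL6raKO held both the highest and the lowest array, and the difference was -0.05 (95% confidence interval -0.24 to 0.15, limma adjusted p = 0.937). With 1 array left out it ranged from -0.12 (without IL6raKO replicate 1) to 0.01 (without Ctrl replicate 2 or IL6raKO replicate 4). Of 10 stromal cell markers, 3 were above 0 and 7 below, with a median of -0.04. Among them 1 had an unadjusted p under 0.05, against 7.28% of all genes: Lum at -0.18 (limma adjusted p = 0.669), with overlap. The summed signal of the 10 markers was 9.54 to 9.79 in Ctrl and 9.45 to 9.74 in IL6raKO on the log2 scale. In RNA from whole cultures, fewer cells of a type and less RNA per cell cannot be told apart.

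The remaining CXC ligands and the receptors gave no call either. Counts over this and the following lists stand beside shares of all genes of 0.0301% called, 7.28% at an unadjusted p under 0.05, and 2.07% (higher) and 2.37% (lower) without overlap between groups. Of 5 further ligands (Cxcl5, Ppbp, Cxcl13, Cxcl15 and Cxcl17), 0 passed in limma, 0 had an unadjusted p under 0.05, and the median difference was -0.04. Cxcl13, the B cell attractant, differed by -0.20 and Cxcl17 by -0.11. Of 8 receptors and scavenging receptors, 0 passed in limma and 2 (against 7.28% of all genes) had an unadjusted p under 0.05, Cxcr1 at -0.18 and Cxcr3 at 0.17, both with an adjusted p of 0.669. Cxcr2, the receptor of the neutrophil-attracting class, was between 5.85 and 6.50 in Ctrl and between 5.43 and 6.31 in IL6raKO, a difference of -0.14 with a limma adjusted p of 0.895. Cxcr4 differed by 0.05.

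Among 15 measured genes of the NF-κB arm, 0 passed in limma and 1 had an unadjusted p under 0.05. That gene was Bcl3, an atypical IκB protein, at 8.27, 8.30, 8.57 and 8.43 in Ctrl and at 8.00, 8.03, 8.03 and 7.99 in IL6raKO, without overlap (difference -0.38, limma adjusted p = 0.237). Socs3, the feedback inhibitor of gp130 signalling, differed by -0.27 (limma adjusted p = 0.569). Stat3 fell by 0.57 (limma adjusted p = 0.0348) and was 1 of 6 genes called on the array, a number that was 0 or 1 with any 1 array left out. In the NF-κB arm, Ikbkg, the regulatory subunit of IκB kinase, and Irak3 were also without overlap, at 0.12 and -0.07 (limma adjusted p = 0.707 and 0.798). With Bcl3, 1 of 15 was thus without overlap and higher and 2 were lower, against 2.07% and 2.37% of all genes. Tnfaip3, an inhibitor of the pathway, differed by 0.12, with overlap. The median of the 15 was 0.01. Of 10 genes that control the decay of chemokine mRNA, 0 passed in limma and 1 had an unadjusted p under 0.05: Zc3h12a, the RNase regnase-1, at 0.21 (adjusted p = 0.669). Zfp36l1 differed by -0.13, without overlap between groups (1 of 10, as 2.37% of all genes were lower), and Zfp36, the ARE-binding protein tristetraprolin, by 0.03.

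Of 10 other cytokine genes driven by NF-κB, 2 were above 0 and 8 below, with a median of -0.07, and 0 passed in limma. Of all 19938 genes, 9135 were above 0 and 10803 below, with a median of -0.01. Whether the 10 genes depart from this split was not tested. The 2 with an unadjusted p under 0.05 were Il1a, at 5.72, 5.70, 5.51 and 5.59 in Ctrl and 5.83, 5.90, 5.97 and 5.83 in IL6raKO (difference 0.25, limma adjusted p = 0.562), and the CC chemokine Ccl5 at -0.18 (limma adjusted p = 0.669). Il1a was without overlap and higher (1 of 10, against 2.07% of all genes) and Ccl5 without overlap and lower (1 of 10, against 2.37%). Tnf differed by 0.07 and Il1b by -0.10.

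Among 13 genes that carry interferon signals to the Cxcr3 ligands, 0 passed in limma and 1 had an unadjusted p under 0.05, the transcription factor Irf1 at -0.22 (adjusted p = 0.616). Irf7 differed by -0.15 and Jak1 by -0.01, and the median was -0.01. Of the 14 interferon-stimulated genes, 0 passed in limma and 3 had an unadjusted p under 0.05, against 7.28% of all genes. Gbp5, a guanylate-binding protein, differed by -0.38 and Gbp3 by -0.28, both without overlap between groups, as 2.37% of all genes were in this direction, while the antiviral gene Rsad2 differed by 0.26. The median of the list was 0.04. Of these 14 genes, 9 were above 0 and 5 below, and of the 13 genes that carry interferon signals 6 were above 0 and 7 below.

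**Figure D4:**
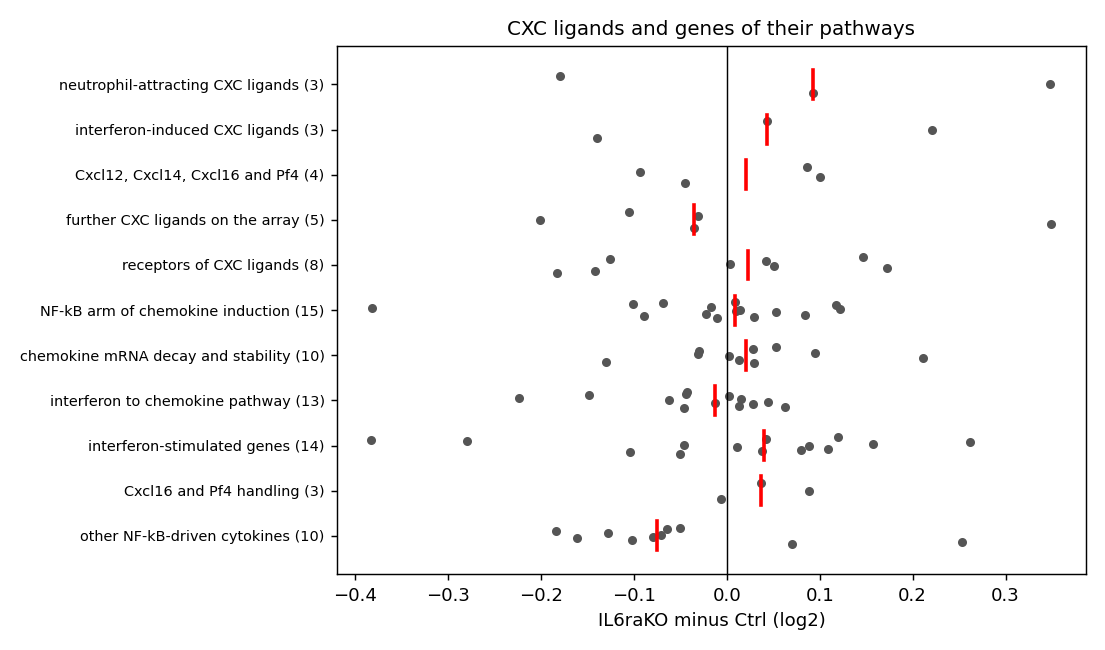
Difference in log2 expression between genotypes (x axis, IL6raKO minus Ctrl) for every measured gene of the ligand and pathway lists, 1 point per gene (the lists of cell type markers are not drawn), with the number of genes in brackets and the list's median as a red line. The medians of the lists drawn lie between -0.07 and 0.09, and Cxcl2 (0.35) and Ppbp (0.35) are the points farthest to the right.

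Markers of cells on which these ligands act, or that could be present in such cultures, were not called. Their directions stand beside those of all 19938 genes, of which 9135 were above 0 and 10803 below. Of 10 neutrophil markers, 4 were above 0 and 6 below (median -0.06), and their summed signal on the log2 scale was 9.83 to 10.03 in Ctrl and 9.82 to 10.06 in IL6raKO. Of 8 T and NK cell markers, 1 was above 0 and 7 below (median -0.04), with a summed signal of 8.76 to 8.79 in Ctrl and 8.61 to 8.80 in IL6raKO. Of 10 mast cell and basophil markers, 1 was above 0 and 9 below (median -0.13), with a summed signal of 9.71 to 10.58 in Ctrl and 9.42 to 10.16 in IL6raKO. Mcpt8, a basophil protease, was at 6.87, 7.37, 7.81 and 8.33 in Ctrl and at 6.19, 7.20, 7.52 and 7.67 in IL6raKO (difference -0.45, limma adjusted p = 0.788). Cpa3, a mast cell carboxypeptidase, differed by -0.38 (limma adjusted p = 0.782), and both differences were larger in size than that of any of the 10 ligands. Cd3d differed by -0.26 and the neutrophil gene S100a9 by -0.22, with limma adjusted p of 0.669 and 0.855. In limma 0 markers of these lists passed, and 1 of the neutrophil list (Mpo), 2 of the T and NK cell list (Cd3d and Cd8a) and 0 of the mast cell list had an unadjusted p under 0.05. Mpo was lower without overlap between groups (1 of 10, as 2.37% of all genes were). The part of these markers in the values of the ligands was not tested.

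Genes with a profile close to a ligand were sought by the root mean square difference between centred log2 values over the 8 arrays, among 9486 genes at or above the median signal, leaving out unnamed gene models and microRNA and snoRNA genes. Those closest to Cxcl2 were Ralgapa2 (0.069), Ptpn4 (0.080), Pacc1 (0.081), Odf2l (0.085) and Stra6l (0.086), where the median gene was at 0.214. Ralgapa2, a subunit of a Ral GTPase-activating complex, was at 7.46, 7.22, 7.38 and 7.42 in Ctrl and 7.63, 7.59, 7.56 and 7.65 in IL6raKO, with replicate 2 lowest of the Ctrl arrays as for Cxcl2. Those closest to Cxcl10 were Pex11a (0.080), Phykpl (0.094), Ttl (0.094), Abcg2 (0.097) and Il1rn (0.107), where the median gene was at 0.216. Il1rn, the IL-1 receptor antagonist, was highest in IL6raKO replicate 3 (8.86), as Cxcl10 was. The genes were picked for a like profile, so a shared highest or lowest array follows from the choice. How close the nearest of so many genes would be by chance was not tested. Cxcl1, Cxcl3, Cxcl9, Cxcl11 and Cxcl12 lay below that signal and were not among the genes compared.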

How the data were processed

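RNA of 8 macrophage cultures was measured on Affymetrix arrays after whole-transcript labelling, per the labels' protocols. The table deposited by the authors gives 35556 probe sets as log2 expression. The submitters' processing notes name RMA and R 2.13.1. The build and the order of steps were not given in the sources used here. That the scale is log2 was read from the range, 1.96 to 14.20, with array medians of 6.31 to 6.35. RMA compresses differences of dim probe sets. There is no read depth for arrays, whose number limits the precision.

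Probe sets were named through GEO's platform annotation: 21789 named 1 gene, 1621 several and 12146 none. The brightest probe set of each gene over all arrays gave 19938 genes. IL6raKO was compared with Ctrl by limma 3.58.1 (lmFit, eBayes) in R 4.3.3, two-sided, with no covariate, no filter and Benjamini-Hochberg adjustment over all genes. The procedure was tested on simulated data. The members, lists and tests were chosen with earlier results of these data known. Every member was named, as were up to 3 genes of lowest p per list, with Il6ra, Stat3, Socs3, Cxcr2 and Cxcr3. Cxcr4, Irak3, Zfp36, Jak1, Tnf, Il1b, Mcpt8 and S100a9 are examples chosen after their values were seen. Correlations of deviations between arrays of the same replicate number were -0.01, -0.01, 0.04 and -0.01, so no pairing by number was seen. Such values cannot show that arrays of the same number were not prepared together. Alternatives were a trended and robust variance, a replicate block, a filter on dim genes, renormalization, array weights, the mean of probe sets, all probe sets, a looser threshold and each array left out.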

Additional observations from a re-analysis of the deposited data

Results flagged for a closer look

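In a group of 4 arrays, 1 array lay far from the other 3 in 5 of 110 sets of values for the named genes, where chance gives about 5.5, and none of the 5 was a CXC ligand of the 10. Ackr1, the atypical chemokine receptor of red cells and endothelium, was at 5.20 in Ctrl replicate 4 and at 4.94 to 4.97 in the other Ctrl arrays. Ikbkg was at 7.42 in IL6raKO replicate 4 and at 7.29 to 7.31 in the others of its group. Ifnar2, a chain of the type I interferon receptor, was at 11.32 in Ctrl replicate 4 and at 11.56 to 11.57 in the other Ctrl arrays. Gbp3 was at 6.79 in IL6raKO replicate 4 and at 7.19 to 7.23 in the others. Cd3d, a T cell receptor chain, was at 4.28 in Ctrl replicate 1 and at 4.59 to 4.63 in the other Ctrl arrays.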

How the results depend on the processing

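No CXC ligand was called under the alternatives fitted with 1 value per gene, an adjusted p under 0.1 included, and 142 of 145 values of the ligands kept their direction. The exceptions were of Cxcl11 and Cxcl12, whose differences ranged from -0.05 to 0.11 and from -0.12 to 0.01 with 1 array left out. The number of ligands at an unadjusted p under 0.05, 2 over all arrays, was 1 (Cxcl2) with the replicate block, a trended and robust variance, renewed quantile normalization or genes at or above the median level, 3 (Cxcl2, Cxcl3 and Cxcl10) with array weights, and 1 to 3 with 1 array left out. Which ligands these were also changed: without Ctrl replicate 4 they were Cxcl2, Cxcl10 and Cxcl16, and without IL6raKO replicate 2 Cxcl2 and Cxcl10. Cxcl2 had an unadjusted p under 0.05 in the 15 alternatives fitted with 1 value per gene, with limma adjusted p of 0.187 to 0.805. Its groups did not overlap in any of them. Leaving out 1 array could not bring an overlap about, and a change of the test alone left the values as they were. The number of ligands without overlap was 1 to 2 with 1 array left out. The shares of all genes at an unadjusted p under 0.05 or without overlap were not counted for the alternatives. Among genes at or above the median level, where 5 of the 10 ligands remained and each class kept 1 gene, the class medians were 0.35 (Cxcl2) and 0.22 (Cxcl10). The number of genes called on the array, 6, was 22 with the trended and robust variance, 11 at or above the median level, 3 with renewed quantile normalization, 0 with the replicate block or all probe sets, and 0 to 1 with 1 array left out. The causes were not tested. At 4 arrays a group, the 95% confidence intervals of the ligands spanned 0.28 to 0.52 on the log2 scale, which limits what differences could be seen.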
